A study of Homo sapiens with 8 samples.

Results

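The enzymes that make nucleotides were followed through mRNA, ribosome footprints and footprints per mRNA in cells carrying a mutant DNMT3A (mut) or wild-type DNMT3A (wt). The group was a list of 33 genes out of 20453 gene IDs in the count tables, matched by the symbol of their Ensembl ID, and all 33 were found. By role they comprised 2 genes of PRPP supply, 12 of the purine arm, 7 of the pyrimidine arm, 10 of the deoxynucleotide arm and 2 nucleoside diphosphate kinases. Purine rings are built stepwise on phosphoribosyl pyrophosphate (PRPP) up to inosine monophosphate (IMP), which is then turned into AMP or GMP. Pyrimidine rings are built first and joined to PRPP afterwards, giving UMP and from it the cytidine nucleotides. Ribonucleotide reductase converts ribonucleotides to the deoxy forms used for DNA, and salvage enzymes return free bases and nucleosides to the pools, so the pathway is best known for its activity in dividing and leukaemic cells.

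DNMT3A lays down new DNA methylation and is often mutated in acute myeloid leukaemia. The cells carry the label THP-1, the name of a monocytic leukaemia line, and received either mutant or wild-type DNMT3A by transduction. Polyadenylated transcripts were sequenced as mRNA, and the fragments that ribosomes shield from nuclease were sequenced as footprints, with 2 libraries for each genotype and assay. Counts do not separate the introduced copy of DNMT3A from the cell's own, and the labels do not say whether a group was 1 clone or a pool. Whether replicates were separate cultures is not stated either, so the p-values rest on a spread between libraries that may be technical. DNMT3A mRNA stood at 241 and 244 CPM in mut, against 291 and 294 CPM in wt (log2 fold change -0.27 ± 0.053 SE by edgeR, adjusted p = 4.3e-06), and its footprints at 144 and 149 CPM in mut, against 138 and 154 CPM in wt (log2 fold change -0.0026 ± 0.11 SE by edgeR, adjusted p = 0.992).

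Total counts were 4393445 and 3901659 in the mut mRNA libraries, 3415999 and 4523475 in the wt mRNA libraries, 944824 and 603360 in the mut footprint libraries, and 1611724 and 1988513 in the wt footprint libraries. Levels are CPM, counts scaled to a common library size with TMM factors. A floor of 3 counts stood for 0.663 to 0.878 CPM in mRNA and 1.51 to 4.97 CPM in footprints, which covers counting error only. The monocytic label was not borne out by marker genes. Of 14 monocyte and macrophage markers 3 (LYZ, CD68 and SPI1) reached 10 CPM in mRNA, while S100A8, S100A9, MPO, IRF8, FCN1 and CD163 had no count in any of the 8 libraries. The 14 summed to between 96.1 and 102 CPM in mut mRNA and between 100.2 and 111 CPM in wt mRNA. All 12 erythroid and megakaryocyte markers reached 10 CPM in mRNA, with sums of 2751 to 2780 CPM in mut and 3190 to 3233 CPM in wt, and 4 of 5 epithelial markers did, with sums of 913 to 917 CPM in mut and 1166 to 1203 CPM in wt. In footprints 10 of the 12 erythroid and megakaryocyte markers reached 10 CPM, HBA1 and HBA2 excepted, and 4 of the 14 monocyte and macrophage markers. Of 4 T and NK cell markers 1, CD3D, reached 10 CPM in both assays. The cells are therefore called cells labelled THP-1 here. The erythroid and epithelial sums were lower in mut, and their part in the differences described here was not tested. In such bulk libraries fewer cells of a type and less RNA per cell cannot be told apart.

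The first comparison asked which of the enzymes differed in mRNA between mut and wt. Of 32 enzymes tested, 9 rose and 6 fell in mut and 17 did not pass the test (edgeR quasi-likelihood, Benjamini-Hochberg adjusted p under 0.05). Over all 10756 genes tested, 37.7% were called, 18.9% in each direction, beside 46.9% of the enzymes. Their median log2 fold change was 0.045, against -0.0022 for all genes. The purine arm held most of the rises: 7 of its 12 genes rose and 3 fell, with a median of 0.22. In the pyrimidine arm 1 of 7 rose and 1 fell (median -0.017), and in the deoxynucleotide arm 1 of 10 rose and 2 fell (median -0.028). These medians describe the arms, and the difference between arms was not tested. NME2 was the 1 enzyme not tested, with no count in any library.

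In footprints 5 of 32 enzymes rose and 5 fell, or 31.2%, beside 21.2% of all 9181 genes (10.3% higher in mut and 11% lower). The enzymes' median log2 fold change in footprints was -0.013, against 0.0055 for all genes. The purine arm had 4 rises and 2 falls, the pyrimidine arm 1 fall, and the deoxynucleotide arm 1 rise and 2 falls. Of the enzymes tested in both assays, PPAT, GART, PAICS, HPRT1 and DCK rose in both and IMPDH1, APRT, CAD and DUT fell in both. Those 5 and 4 genes were 15.6% and 12.5% of the enzymes, beside 6.3% and 6.32% of all genes, and no enzyme was called in opposite directions, beside 0.48% of all genes that rose in mRNA and fell in footprints and 0.262% that did the reverse. Counting libraries alone, both mut values lay above both wt values for 13 enzymes and below them for 10 in mRNA, beside 67.8% of all genes without overlap, and for 10 and 13 in footprints, beside 58.8%. ADSL, GMPS, ADSS2 and CTPS2 rose and PFAS and TK1 fell in mRNA alone, while DTYMK fell in footprints alone. A call in 1 assay and not in the other does not show that the assays differ, which is what footprints per mRNA test.

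**Figure D1:**
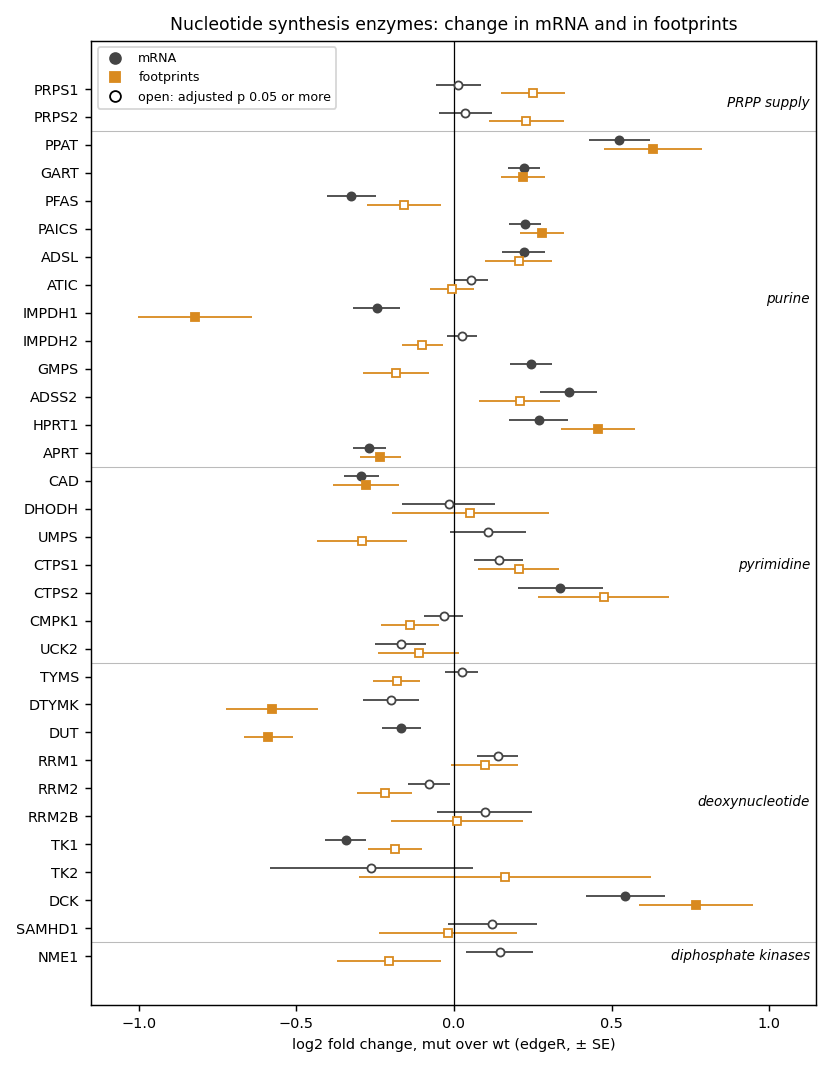
Log2 fold change, mut over wt, of 32 nucleotide synthesis enzymes in mRNA (circles) and in footprints (squares), with the edgeR standard error as bars and filled symbols for an adjusted p under 0.05. The filled symbols of the early purine steps lie mostly right of 0, while those of IMPDH1, APRT, CAD and DUT lie left of 0 in both assays.

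Of the 6 genes for the steps from PRPP to IMP, 4 rose and 1 fell in mRNA, where 37.7% of all genes were called. In footprints 3 rose and none fell, where 21.2% of all genes were called. No footprint call was left among the 6 at an assumed spread of 10%, without mut footprint replicate 1 or with DESeq2, which gave no adjusted p for PPAT. PPAT, the amidotransferase that commits PRPP to purines, had the largest rise of them. Its mRNA stood at 76.7 and 73.2 CPM in mut, against 52.0 and 52.2 CPM in wt, a 1.44-fold difference (log2 fold change 0.52 ± 0.10 SE by edgeR, adjusted p = 9.6e-07). Its footprints stood at 95.2 and 78.8 CPM in mut, against 58.4 and 56.4 CPM in wt (log2 fold change 0.63 ± 0.16 SE by edgeR, adjusted p = 0.00123). Both mut libraries lay above both wt libraries in each assay. PAICS, a bifunctional enzyme of the middle steps, had 347 and 325 CPM in mut, against 299.8 and 278 CPM in wt (log2 fold change 0.23 ± 0.051 SE by edgeR, adjusted p = 7.8e-05). PAICS footprints were 491 and 499 CPM in mut, against 430.2 and 388 CPM in wt (log2 fold change 0.28 ± 0.070 SE by edgeR, adjusted p = 0.00152), again without overlap. GART, which carries 3 of the steps on 1 protein, stood at 360.3 and 336 CPM in mut, against 309 and 289.9 CPM in wt (log2 fold change 0.22 ± 0.050 SE by edgeR, adjusted p = 8.1e-05), and its footprints at 507 and 461 CPM in mut, against 442 and 399.8 CPM in wt (log2 fold change 0.22 ± 0.070 SE by edgeR, adjusted p = 0.0155). The fitted rises of PAICS and GART were smaller than that of PPAT in both assays.

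PFAS, which adds an amide nitrogen from glutamine, went the other way in mRNA, with 87.0 and 95.1 CPM in mut, against 115 and 113 CPM in wt (log2 fold change -0.33 ± 0.078 SE by edgeR, adjusted p = 2.1e-04). Its footprints did not pass the test, at 133 and 123 CPM in mut, against 134 and 153 CPM in wt (log2 fold change -0.16 ± 0.12 SE by edgeR, adjusted p = 0.357). ADSL, an adenylosuccinate lyase used both before IMP and on the way to AMP, had mRNA of 165 and 143 CPM in mut, against 125 and 138 CPM in wt (log2 fold change 0.22 ± 0.067 SE by edgeR, adjusted p = 0.00438). Its 2 mut footprint libraries were far apart, at 241 and 153 CPM, and took in both wt values of 165 and 189.8 CPM (log2 fold change 0.21 ± 0.11 SE by edgeR, adjusted p = 0.164). ATIC, the bifunctional enzyme that closes the ring to IMP, had overlapping groups in both assays, with mRNA of 256 and 247 CPM in mut, against 234 and 249 CPM in wt (log2 fold change 0.055 ± 0.055 SE by edgeR, adjusted p = 0.452) and a log2 fold change of -0.0058 in footprints. In the reference table PFAS, ADSL and ATIC overlap CTC1, SGSM3 and FN1 in that order, so a part of their reads could belong to those genes. PFAS lies in the most gene-dense neighbourhood of the group, with 74 genes within 1 Mb, and its mRNA log2 fold change was -0.11 (edgeR adjusted p = 0.327) once the genome-wide trend of fold change with gene density was taken out. The mRNA calls of GART and PAICS were lost without wt mRNA replicate 2 (edgeR adjusted p = 0.0695 and 0.0824), and that of ADSL without wt mRNA replicate 1 or mut mRNA replicate 1 (up to 0.331). In footprints all 3 calls were lost without mut replicate 1, with edgeR adjusted p of 0.254 for PPAT, and those of GART and PAICS also without wt replicate 2 or mut replicate 2.

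PPAT and PAICS are a head-to-head pair on chromosome 4 (GRCh38). RefSeq places the PPAT start at 56435615 on the minus strand and a PAICS start at 56435752 on the plus strand, 137 bases apart. The PAICS gene model begins at 56410507, so this PAICS start lies inside it. It was taken because its window holds an E-box. Their RefSeq gene models overlap on opposite strands, and the strand setting of the counting is not given in the sources used here, so reads could have been assigned to the wrong partner where the models overlap. The reference table also lists 7 pseudogenes named after PAICS and 2 named after PPAT. The stretch between these starts is shown because both genes of the pair rose in both assays. A second line shows the E-box (CACGTG, in capitals) that lies inside both promoter windows. It lies 41 bases into the transcript from that PAICS start and 182 bases upstream of PPAT. Both are RefSeq sequence of GRCh38.p14, plus strand.
PPAT-PAICS, chr4:56435616-56435751: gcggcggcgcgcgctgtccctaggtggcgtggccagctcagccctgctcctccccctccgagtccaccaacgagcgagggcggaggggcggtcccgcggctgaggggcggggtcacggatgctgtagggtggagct
PAICS E-box, chr4:56435782-56435801: gtatttgctgCACGTGgaaa

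After IMP the guanine branch split by gene and by assay. IMPDH1 and IMPDH2 are the isozymes of IMP dehydrogenase, the rate-limiting step to GMP. IMPDH1 mRNA (chromosome 7, 128392277 to 128409982, GRCh38) stood at 105 and 103 CPM in mut, against 130.1 and 119 CPM in wt (log2 fold change -0.25 ± 0.074 SE by edgeR, adjusted p = 0.00398). IMPDH1 footprints stood at 36.6 and 49.2 CPM in mut, against 74.9 and 72.4 CPM in wt, or 0.566 of the wt level (log2 fold change -0.82 ± 0.18 SE by edgeR, adjusted p = 2.9e-04). The mut values lay below the wt values in both assays, from footprint counts of only 35 and 30 in mut and 118 and 140 in wt. IMPDH2, the more highly counted isozyme, did not pass in either assay, with mRNA of 395 and 392 CPM in mut, against 387 and 387 CPM in wt (log2 fold change 0.026 ± 0.047 SE by edgeR, adjusted p = 0.710) and footprints of 516 and 517 CPM in mut, against 569.8 and 539 CPM in wt (log2 fold change -0.10 ± 0.065 SE by edgeR, adjusted p = 0.285). The IMPDH1 footprint call was lost without mut footprint replicate 1 (edgeR adjusted p = 0.189) and its mRNA call without wt mRNA replicate 1 (0.129). The reference table lists 11 pseudogenes named after IMPDH1, so the share of its reads that could have been placed elsewhere is uncertain.

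GMPS, which aminates XMP to GMP, rose in mRNA, with 161 and 152 CPM in mut, against 134 and 131 CPM in wt (log2 fold change 0.24 ± 0.067 SE by edgeR, adjusted p = 0.00145). Its footprints were lower in both mut libraries, at 159 and 176 CPM in mut, against 190.3 and 186 CPM in wt, and did not pass the test (log2 fold change -0.18 ± 0.10 SE by edgeR, adjusted p = 0.211). ADSS2, the adenylosuccinate synthase that opens the AMP branch, rose in mRNA, with 80.3 and 85.9 CPM in mut, against 58.8 and 68.8 CPM in wt (log2 fold change 0.36 ± 0.090 SE by edgeR, adjusted p = 3.6e-04), while its footprints of 121 and 108 CPM in mut, against 98.3 and 102 CPM in wt did not pass (log2 fold change 0.21 ± 0.13 SE by edgeR, adjusted p = 0.255). Both genes lie in gene-poor neighbourhoods, with 8 and 6 genes within 1 Mb, and with the density trend taken out their mRNA log2 fold changes were 0.070 and 0.18 and no longer called (edgeR adjusted p = 0.479 and 0.137). With the same trend removed GMPS footprints were called lower in mut, at -0.33 (edgeR adjusted p = 0.0163). The GMPS mRNA call was also lost without wt mRNA replicate 2 (edgeR adjusted p = 0.0654) and that of ADSS2 without wt mRNA replicate 1 (0.0520).

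The salvage enzymes moved in opposite directions. HPRT1 recovers hypoxanthine and guanine, and its mRNA stood at 74.9 and 68.8 CPM in mut, against 58.5 and 60.8 CPM in wt (log2 fold change 0.27 ± 0.095 SE by edgeR, adjusted p = 0.0153). HPRT1 footprints stood at 155 and 146 CPM in mut, against 106 and 114 CPM in wt (log2 fold change 0.46 ± 0.12 SE by edgeR, adjusted p = 0.00214). APRT recovers adenine, and its mRNA fell to 251 and 265 CPM in mut, against 304 and 316 CPM in wt (log2 fold change -0.27 ± 0.052 SE by edgeR, adjusted p = 3.9e-06). APRT footprints fell as well, with 502 and 492 CPM in mut, against 551 and 616 CPM in wt (log2 fold change -0.23 ± 0.066 SE by edgeR, adjusted p = 0.00559). No group overlapped in either gene or assay. Leaving out wt mRNA replicate 1, wt mRNA replicate 2 or mut mRNA replicate 1 ended the HPRT1 mRNA call (edgeR adjusted p up to 0.187), as did removal of the gene density trend (0.0634) and DESeq2 (DESeq2 adjusted p = 0.187). Leaving out mut footprint replicate 1 ended the footprint calls of HPRT1 and APRT (edgeR adjusted p = 0.189 for HPRT1). The APRT footprint call was also lost without wt footprint replicate 2 or mut footprint replicate 2 (up to 0.192) and with the density trend removed (0.0604).

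**Figure D2:**
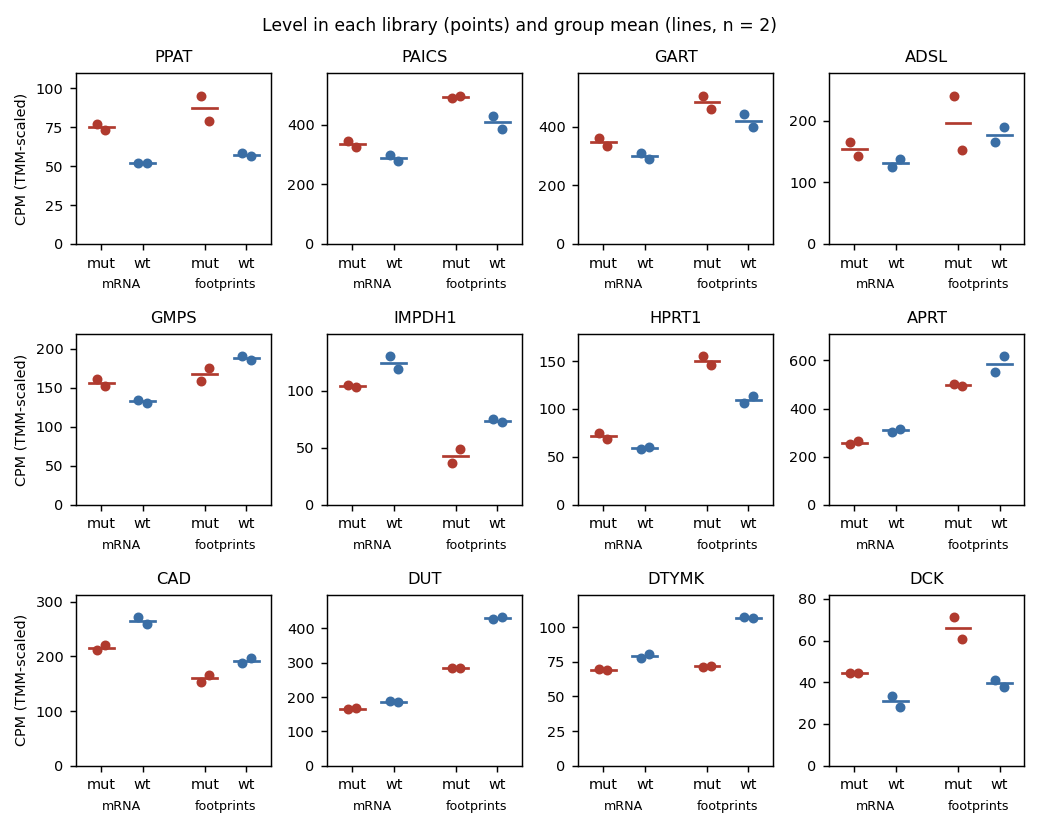
Level in each library (points, CPM scaled by TMM) and group mean (lines, n = 2 libraries) of 12 enzymes in mRNA and in footprints, mut left of wt. The mut points of PPAT, PAICS, GART, HPRT1 and DCK lie above the wt points in both assays, those of IMPDH1, APRT, CAD, DUT and DTYMK lie below, and GMPS lies above in mRNA and below in footprints.

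PRPP itself is made by PRPS1 and PRPS2, and neither passed the test in any comparison. PRPS1 mRNA stood at 127 and 129 CPM in mut, against 121 and 132 CPM in wt (log2 fold change 0.014 ± 0.070 SE by edgeR, adjusted p = 0.898) and overlapped between groups. Its footprints were higher in both mut libraries, at 193 and 222 CPM in mut, against 177 and 167 CPM in wt (log2 fold change 0.25 ± 0.10 SE by edgeR, adjusted p = 0.0629). PRPS2 behaved alike in values, with mRNA of 83.9 and 85.4 CPM in mut, against 84.3 and 81.2 CPM in wt (log2 fold change 0.036 ± 0.085 SE by edgeR, adjusted p = 0.773) and footprints of 139 and 138 CPM in mut, against 119 and 117 CPM in wt (log2 fold change 0.23 ± 0.12 SE by edgeR, adjusted p = 0.163).

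In the pyrimidine arm CAD fell and the later enzymes mostly did not pass the test. CAD joins the first 3 activities of pyrimidine synthesis in 1 protein, and its mRNA stood at 211 and 221 CPM in mut, against 272 and 259 CPM in wt (log2 fold change -0.29 ± 0.055 SE by edgeR, adjusted p = 1.6e-06). CAD footprints stood at 154 and 166 CPM in mut, against 187 and 196 CPM in wt (log2 fold change -0.28 ± 0.10 SE by edgeR, adjusted p = 0.0447), so that mut lay below wt in both assays. DHODH, the mitochondrial enzyme that follows, overlapped between groups in both, with mRNA of 26.1 and 24.7 CPM in mut, against 26.0 and 25.6 CPM in wt (log2 fold change -0.017) and footprints of 28.3 and 26.3 CPM in mut, against 24.1 and 28.4 CPM in wt (0.053). UMPS, which completes UMP, had mRNA of 39.8 and 42.6 CPM in mut, against 38.4 and 37.9 CPM in wt (log2 fold change 0.11 ± 0.12 SE by edgeR, adjusted p = 0.5). UMPS footprints were lower in both mut libraries without passing the test, at 83.7 and 73.9 CPM in mut, against 98.3 and 97.2 CPM in wt (log2 fold change -0.29 ± 0.14 SE by edgeR, adjusted p = 0.140). The footprint call of CAD was close to the threshold and was lost without wt footprint replicate 2, mut footprint replicate 1 or mut footprint replicate 2 (edgeR adjusted p up to 0.447) and with the density trend removed (0.288), while its mRNA call held without any 1 library.

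The cytidine step is shared by CTPS1 and CTPS2, which aminate UTP to CTP. CTPS2 mRNA rose, with 38.9 and 31.6 CPM in mut, against 30.4 and 26.2 CPM in wt (log2 fold change 0.34 ± 0.13 SE by edgeR, adjusted p = 0.0343), and its footprints of 45.0 and 47.6 CPM in mut, against 37.4 and 29.5 CPM in wt did not pass (log2 fold change 0.48 ± 0.21 SE by edgeR, adjusted p = 0.0901). CTPS1 mRNA overlapped between groups at 113 and 95.1 CPM in mut, against 98.5 and 92.2 CPM in wt (log2 fold change 0.14 ± 0.078 SE by edgeR, adjusted p = 0.142), and CTPS1 footprints stood at 120.4 and 107 CPM in mut, against 102 and 97.7 CPM in wt (log2 fold change 0.20 ± 0.13 SE by edgeR, adjusted p = 0.269). The CTPS2 call was among the weakest here and was lost in 7 of 11 alternatives, those without wt mRNA replicate 2 or mut mRNA replicate 1 included (edgeR adjusted p up to 0.488). CMPK1, which phosphorylates UMP and CMP, and UCK2, which salvages uridine and cytidine, had mRNA log2 fold changes of -0.032 and -0.17 (edgeR adjusted p = 0.717 and 0.0853). In footprints the same genes stood at -0.14 and -0.11 (edgeR adjusted p = 0.297 and 0.588).

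Within the deoxynucleotide arm the enzymes that act on thymidine and uracil nucleotides fell where they were called, and the salvage kinase DCK rose. DUT hydrolyses dUTP to dUMP and so keeps uracil out of DNA. DUT footprints stood at 286 and 286 CPM in mut, against 427 and 432 CPM in wt, or 0.665 of the wt level (log2 fold change -0.59 ± 0.078 SE by edgeR, adjusted p = 1.0e-09), from counts of 273 and 174 in mut and 673 and 836 in wt. DUT mRNA stood at 164 and 168 CPM in mut, against 188 and 185 CPM in wt (log2 fold change -0.17 ± 0.062 SE by edgeR, adjusted p = 0.0219). The libraries of each genotype agreed closely with each other and mut lay below wt in both assays. The footprint call held in all 11 alternatives, with log2 fold changes between -0.71 and -0.58 and an edgeR adjusted p of at most 0.00720 when 1 library was left out. The mRNA call was lost without wt mRNA replicate 1, wt mRNA replicate 2 or mut mRNA replicate 1 (edgeR adjusted p up to 0.141). The reference table lists 8 pseudogenes named after DUT, and how reads that match several places were counted is not given in the sources used here.

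DTYMK phosphorylates dTMP, and its footprints stood at 71.2 and 72.2 CPM in mut, against 107 and 106 CPM in wt (log2 fold change -0.58 ± 0.14 SE by edgeR, adjusted p = 0.00151). DTYMK mRNA was lower in both mut libraries but did not pass, at 69.5 and 68.8 CPM in mut, against 77.8 and 80.7 CPM in wt (log2 fold change -0.20 ± 0.089 SE by edgeR, adjusted p = 0.0654). TK1, the cytosolic thymidine kinase of S phase, fell in mRNA, with 133 and 144 CPM in mut, against 168 and 181 CPM in wt (log2 fold change -0.34 ± 0.065 SE by edgeR, adjusted p = 2.1e-06), and its footprints of 262 and 266 CPM in mut, against 291 and 307 CPM in wt did not pass (log2 fold change -0.19 ± 0.085 SE by edgeR, adjusted p = 0.104). TYMS, which methylates dUMP to dTMP, had overlapping mRNA of 280.5 and 288 CPM in mut, against 293 and 269 CPM in wt (log2 fold change 0.024 ± 0.052 SE by edgeR, adjusted p = 0.750). TYMS footprints were lower in both mut libraries, at 364 and 374 CPM in mut, against 421 and 415 CPM in wt (log2 fold change -0.18 ± 0.074 SE by edgeR, adjusted p = 0.0636). TYMS overlaps ENOSF1 on the opposite strand, and with the density trend removed its mRNA log2 fold change was -0.14 and its footprint log2 fold change -0.32, both called (edgeR adjusted p = 0.0269 and 0.000531). The DTYMK footprint call was lost without mut footprint replicate 1 (edgeR adjusted p = 0.129).

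DCK, which phosphorylates deoxycytidine and activates the leukaemia drug cytarabine, had the largest rise of the 33 genes in both assays. DCK mRNA (chromosome 4, 70993649 to 71030914, GRCh38) stood at 44.5 and 44.4 CPM in mut, against 33.4 and 28.2 CPM in wt, a 1.46-fold difference (log2 fold change 0.54 ± 0.12 SE by edgeR, adjusted p = 1.1e-04). DCK footprints stood at 71.2 and 60.7 CPM in mut, against 41.2 and 37.8 CPM in wt, a 1.70-fold difference (log2 fold change 0.77 ± 0.18 SE by edgeR, adjusted p = 6.8e-04). Both mut libraries lay above both wt libraries in each assay. The footprint call was lost without mut footprint replicate 1 (edgeR adjusted p = 0.173), and the mRNA call held without any 1 library, at an edgeR adjusted p of up to 0.0486.

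No gene of ribonucleotide reductase passed the test in any comparison. Its large subunit gene RRM1 had mRNA of 165 and 160.1 CPM in mut, against 143 and 151 CPM in wt (log2 fold change 0.14 ± 0.065 SE by edgeR, adjusted p = 0.0788) and footprints of 177 and 174 CPM in mut, against 179.6 and 152 CPM in wt (log2 fold change 0.10 ± 0.11 SE by edgeR, adjusted p = 0.565). The S-phase small subunit gene RRM2 had mRNA of 150.3 and 141 CPM in mut, against 153 and 155 CPM in wt (log2 fold change -0.079 ± 0.066 SE by edgeR, adjusted p = 0.353) and footprints of 239 and 271 CPM in mut, against 288 and 297 CPM in wt (log2 fold change -0.22 ± 0.086 SE by edgeR, adjusted p = 0.0562). In the libraries mut lay above wt for RRM1 mRNA and below it for RRM2 in both assays. RRM2B, the alternative small subunit induced by p53, overlapped between groups in both assays, at 27.4 and 24.0 CPM in mut, against 25.7 and 22.9 CPM in wt in mRNA and 36.6 and 42.7 CPM in mut, against 37.4 and 39.8 CPM in wt in footprints. With the density trend removed RRM1 mRNA was called higher (0.27, edgeR adjusted p = 0.000333) and RRM2 lower in mRNA (-0.17, 0.0374) and in footprints (-0.28, 0.0156). SAMHD1, which hydrolyses dNTPs, had log2 fold changes of 0.12 in mRNA and -0.020 in footprints with overlapping groups, and TK2, the mitochondrial thymidine kinase, had between 6 and 13 footprint counts per library. NME1, a nucleoside diphosphate kinase, had mRNA of 52.4 and 55.6 CPM in mut, against 52.3 and 46.0 CPM in wt (log2 fold change 0.15 ± 0.11 SE by edgeR, adjusted p = 0.284) and overlapping footprints (log2 fold change -0.21 ± 0.16 SE by edgeR, adjusted p = 0.398). NME2, its neighbour and near copy, had no count in any of the 8 libraries, and the readthrough gene NME1-NME2 had 8 to 11 counts in mRNA and 0 in footprints, so how reads of these genes were assigned is uncertain.

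The summed level of each arm, which weights highly counted genes more than the median does, was set side by side without a test. The 12 purine genes summed to 2360.0 and 2287 CPM of mRNA in mut and 2209 and 2202 CPM in wt, a ratio of 1.05. Their footprints summed to 3422 and 3280.0 CPM in mut and 3269 and 3308 CPM in wt, a ratio of 1.02 with overlapping groups. The 7 pyrimidine genes gave 699 and 676 CPM of mRNA in mut against 746 and 721 CPM in wt (ratio 0.937), and 759.9 and 752 CPM of footprints in mut against 814 and 807 CPM in wt (ratio 0.932). The deoxynucleotide genes gave 1070.0 CPM of mRNA in each mut library against 1114 and 1105 CPM in wt (ratio 0.964). Their footprints summed to 1551 and 1586 CPM in mut against 1839 and 1827 CPM in wt (ratio 0.856). DUT weighed heavily in this sum, with a mean of 285.7 CPM in mut against 429.7 CPM in wt. By fitted change in footprints 4 of the 10 genes were higher and 6 lower in mut, so the ratio does not describe each gene. The PRPP supply genes summed to 211 and 215 CPM of mRNA in mut against 205.5 and 213 CPM in wt (ratio 1.02). Their footprints summed to 332 and 359.5 CPM in mut against 296 and 284 CPM in wt (ratio 1.19), the highest ratio of the 5 arms. The diphosphate kinases, where NME1 gave all the counts, had ratios of 1.10 in mRNA and 0.825 in footprints, the lowest of the 5 arms. Their mut footprints of 72.2 and 49.2 CPM overlapped wt at 79.95 and 67.2 CPM. Within the purine arm the 6 genes up to IMP summed to 1292 and 1219 CPM of mRNA in mut and 1136 and 1120.0 CPM in wt, and to 1932 and 1791 CPM of footprints in mut and 1679 and 1678 CPM in wt.

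Footprints per mRNA divide a gene's footprint CPM by its mRNA CPM. Gene length cancels only if the reads of both assays spread alike over the same feature. The counted feature is not given in the sources used here. Footprints come mainly from coding sequence. The mRNA libraries were primed with oligo(dT), and how evenly their reads covered transcripts was not checked. The order of genes below, and their place against the median of all genes, is therefore that of the deposited counts and may carry gene length. By this ratio 30 of 32 in mut and 29 of 32 (90.6%) in wt were above the median of all genes, which was 1.01 in mut and 1.03 in wt. Their own medians were 1.35 in mut and 1.38 in wt. In wt UMPS was highest at 2.56, followed by DUT at 2.30, ATIC at 1.95, RRM2 at 1.9, APRT at 1.88, HPRT1 at 1.84 and TK1 at 1.72. In mut HPRT1 led at 2.09, followed by APRT at 1.93, UMPS and TK1 at 1.91, ATIC at 1.87, RRM2 at 1.75 and DUT at 1.72. Ranges here run over each footprint library divided by each mRNA library of a genotype and leave out counting error. The mut range of HPRT1 (1.95 to 2.25) overlapped those of APRT, UMPS and TK1 and lay above those of ATIC, RRM2 and DUT. That of ATIC reached 1.93, and HPRT1 rested on 148 and 89 footprint counts in mut, so their order is not settled. The ranges over the libraries of ATIC, RRM2, APRT, HPRT1 and TK1 overlapped in wt, except that TK1 lay below RRM2, whereas that of DUT (2.27 to 2.34) lay above all 5. At the low end were CAD, at 0.739 in mut and 0.723 in wt, and IMPDH1, at 0.412 in mut and 0.592 in wt, both under the median of all genes.

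**Figure D3:**
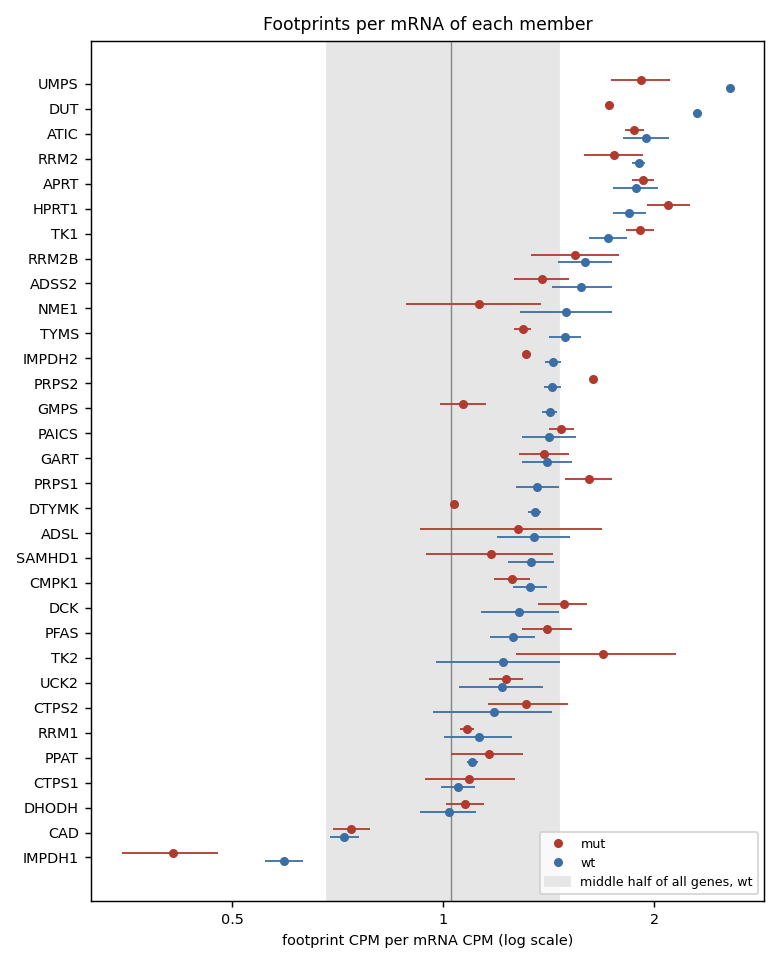
Footprint CPM per mRNA CPM of 32 enzymes (points, with lines from the lowest to the highest value that the replicates give) in mut and in wt, on a log2 axis and ordered by the wt value. The grey band holds the middle 50% of all genes in wt, with the median as a line: UMPS and DUT lie far right of it in wt and nearer to it in mut, while CAD and IMPDH1 lie left of the median line.

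The third comparison asked whether footprints changed beyond mRNA, tested in a model of all 8 libraries by its genotype-by-assay term. None of the 32 enzymes rose and 2 fell, DUT and GMPS, or 6.25%, beside 4.11% of all 9166 genes (1.65% higher in mut and 2.47% lower). Footprints per DUT mRNA were 1.72 in mut and 2.30 in wt (log2 fold change -0.43 ± 0.10 SE by edgeR, adjusted p = 0.00274). For GMPS they were 1.07 in mut and 1.42 in wt (log2 fold change -0.43 ± 0.12 SE by edgeR, adjusted p = 0.0240). DUT thus fell in both assays and further in footprints, and GMPS rose in mRNA while its footprints did not pass the test. By fitted change 17 of the 32 enzymes lay lower and 15 higher in mut. Their median log2 fold change was -0.015, against -0.00096 for all genes. Of the 30 enzymes not called by edgeR 4 had an unadjusted p under 0.05, each lower in mut. The share of all genes at that threshold was not counted, so this number does not describe the group. DESeq2 called 0 enzymes and gave no adjusted p for 9. IMPDH1 had the largest fitted difference and did not pass, with log2 fold change -0.58 ± 0.20 SE by edgeR, adjusted p = 0.0868. UMPS had a log2 fold change of -0.41 and DTYMK of -0.38 (edgeR adjusted p = 0.223 and 0.213). The DUT call was lost when mut footprint replicate 1 was left out (edgeR adjusted p = 0.0716), with DESeq2 and at an assumed spread of 10%. The GMPS call was lost in 6 of 15 alternatives, among them those without wt mRNA replicate 2, mut mRNA replicate 1, wt footprint replicate 1 or mut footprint replicate 1 (edgeR adjusted p up to 0.350).

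Shares within an isozyme pair were read from counts of the same library and need no scaling. IMPDH1 gave 21.0% and 20.8% of the summed IMPDH1 and IMPDH2 mRNA counts in mut, against 25.2% and 23.5% in wt. In footprints its share was 6.63% and 8.7% in mut, against 11.6% and 11.8% in wt. The groups did not overlap in either assay. CTPS1 held 74.4% and 75.1% of CTPS mRNA counts in mut, against 76.4% and 77.8% in wt, and 72.8% and 69.1% of the footprint counts in mut, against 73.2% and 76.8% in wt. RRM2 held 84.56% and 85.45% of the small subunit mRNA counts in mut, against 85.6% and 87.14% in wt. In footprints it held 86.7% and 86.4% in mut, against 88.5% and 88.2% in wt. The CTPS1 and RRM2 shares were also lower in mut without overlap in both assays, but by small gaps. The nearest values were 72.8% in mut against 73.2% in wt for CTPS1 footprints. For RRM2 mRNA they were 85.45% in mut against 85.6% in wt. CTPS2 gave only 29 to 59 footprint counts per library, and counting error was not set against these gaps. For levels of single genes, groups without overlap were 67.8% of all genes in mRNA and 58.8% in footprints. The shares of PRPS1 (58.0% to 61.9% in all 8 libraries) and of TK1 (96.4% to 98.2%) overlapped between the groups in both assays. Each group has 2 libraries, so an exact permutation test could not give a two-sided p below 0.333, and none was run.

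**Figure D4:**
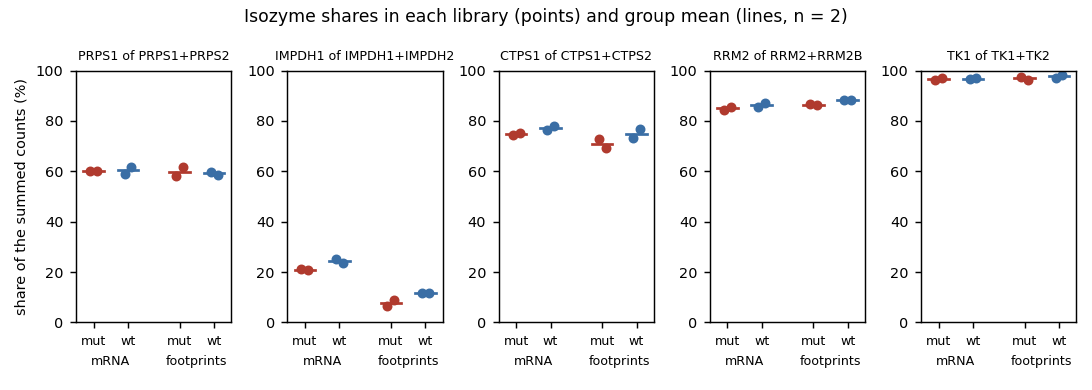
Share of the first isozyme in the summed counts of its pair (%, from 0 to 100) in each library (points) with the group mean (lines, n = 2), mut left of wt, for mRNA and footprints. The IMPDH1 share is lower in mut in both assays (6.63% and 8.7% in mut against 11.6% and 11.8% in wt footprints). The CTPS1 and RRM2 points are also lower in mut in both assays, but by small gaps, while PRPS1 and TK1 points lie together.

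Fold changes followed local gene density across the genome, with a Spearman correlation over genes of -0.43 in mRNA and -0.29 in footprints, where genes share neighbourhoods and are not independent. With that trend removed 7 enzymes rose and 8 fell in mRNA, beside 26.4% of all genes called, and the enzymes' median was -0.042. The purine arm then had 5 rises and 2 falls and the deoxynucleotide arm 2 rises and 4 falls. In footprints 5 rose and 7 fell, beside 17.7% of all genes called, and in footprints per mRNA none rose and 2 fell, beside 3.84%. The estimated spread between replicates was small, with a common biological coefficient of variation (BCV) that edgeR put at 2.25% in mRNA and 1.92% in footprints. At an assumed 10% no enzyme was called in mRNA, beside 2.91% of all genes, and DUT, IMPDH1 and DCK were called in footprints, beside 3.14%. The count of enzymes called in mRNA was 9 without wt mRNA replicate 2 and 10 without wt mRNA replicate 1. In footprints it was 6 without wt replicate 2 and 1 (DUT) without mut replicate 1, when the deeper of the 2 mut libraries was missing.

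Genes around the pathway were read from lists of 44 further nucleotide metabolism genes and of 9 genes that supply folate-bound carbon and glutamine. Of 36 nucleotide metabolism genes tested in mRNA 3 rose and 10 fell, and of 35 in footprints 1 rose and 5 fell, with medians of -0.11 and -0.19. The shares called were 36.1% in mRNA, beside 37.7% of all genes, and 17.1% in footprints, beside 21.2%, so neither lay above the share over all genes. DCTPP1, a dCTP pyrophosphatase, fell in mRNA, with 80.8 and 74.0 CPM in mut, against 114 and 116 CPM in wt (log2 fold change -0.57 ± 0.080 SE by edgeR, adjusted p = 4.5e-11), and in footprints (log2 fold change -0.59 ± 0.11 SE by edgeR, adjusted p = 2.0e-05). In mRNA the next falls by p were SLC29A2, a nucleoside transporter (log2 fold change -0.50 ± 0.079 SE by edgeR, adjusted p = 8.6e-09), and GUK1, the guanylate kinase (log2 fold change -0.26 ± 0.061 SE by edgeR, adjusted p = 2.1e-04). The 3 rises were ADK, the adenosine kinase (log2 fold change 0.31 ± 0.092 SE by edgeR, adjusted p = 0.00385), NT5C3A, a pyrimidine nucleotidase (log2 fold change 0.35 ± 0.12 SE by edgeR, adjusted p = 0.0127), and AK6 (log2 fold change 0.23 ± 0.091 SE by edgeR, adjusted p = 0.0319). In footprints ADK rose (log2 fold change 0.52 ± 0.11 SE by edgeR, adjusted p = 1.2e-04), and DGUOK, the mitochondrial deoxyguanosine kinase, and UCKL1, a uridine kinase relative, fell (log2 fold change -0.36 ± 0.078 SE by edgeR, adjusted p = 2.2e-04, and log2 fold change -0.63 ± 0.16 SE by edgeR, adjusted p = 0.00235). Without mut mRNA replicate 1 the mRNA calls of ADK, NT5C3A and AK6 were lost (edgeR adjusted p up to 0.649), as was that of ADK without wt mRNA replicate 1 and those of NT5C3A and AK6 without wt mRNA replicate 2. Without mut footprint replicate 1 the footprint calls of ADK, DCTPP1 and UCKL1 were lost (up to 0.217), leaving 1 of the 6.

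Of the 9 carbon and nitrogen donor genes 1 rose and 3 fell in mRNA, and of 8 tested in the other comparisons 4 fell in footprints and 2 in footprints per mRNA. These were 44.4%, 50% and 25% of the donors tested, beside 37.7%, 21.2% and 4.11% of all genes. MTHFD2, a mitochondrial folate dehydrogenase, rose in mRNA, with 423 and 425 CPM in mut, against 372 and 378 CPM in wt (log2 fold change 0.18 ± 0.047 SE by edgeR, adjusted p = 0.00108), and fell in footprints, with 1253 and 1280.0 CPM in mut, against 1530.0 and 1657 CPM in wt (log2 fold change -0.34 ± 0.048 SE by edgeR, adjusted p = 1.2e-08). Footprints per MTHFD2 mRNA were 2.99 in mut and 4.25 in wt (log2 fold change -0.52 ± 0.066 SE by edgeR, adjusted p = 2.1e-08). GLUL, the glutamine synthetase, fell in mRNA (log2 fold change -0.32 ± 0.037 SE by edgeR, adjusted p = 1.3e-16), in footprints (log2 fold change -0.65 ± 0.049 SE by edgeR, adjusted p = 3.8e-22) and in footprints per mRNA (log2 fold change -0.34 ± 0.060 SE by edgeR, adjusted p = 6.6e-05). These calls of MTHFD2 and GLUL held when any 1 library was left out. SHMT2 and FPGS fell in mRNA (-0.11 and -0.31) and in footprints (-0.24 and -0.47, edgeR adjusted p = 9.5e-04 and 0.00482). Both footprint calls were lost without mut footprint replicate 1 (up to 0.349), that of SHMT2 also without mut footprint replicate 2 and that of FPGS without wt footprint replicate 2, and the SHMT2 mRNA call was lost without wt mRNA replicate 1, wt mRNA replicate 2 or mut mRNA replicate 1.

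Promoter windows of RefSeq (GRCh38.p14, 250 bases before to 50 after the start) were found for 30 of the 33 enzymes and searched on both strands. ADSL, IMPDH2 and RRM2B had none. An E2F site, searched as TTTCCCGC or TTTGGCGC, was found in 5 of the 30 (16.7%), against 2.75% of 27305 genes with a window: DUT, TYMS, DCK, GART and PRPS2. An E-box, CACGTG, was found in 6 (20%, against 8.77%): PPAT, PAICS, ATIC, DCK, DHODH and NME1. A CCAAT box was found in 11 (36.7%, against 39.7%), and the ATF4 composite TGATGNAA in none (against 4.46%). By single window the 4 shares were 2.27%, 7.26%, 34.6% and 3.62% of 35116 windows. The 30 enzymes had 44 windows, and a gene with more windows has more chances of a match. The background took in all genes with a window, whether or not they were tested here. Enzymes with an E2F site were DUT, which fell, DCK and GART, which rose, and TYMS and PRPS2, which were not called. Of those with an E-box PPAT, PAICS and DCK rose, while ATIC, DHODH and NME1 were not called in any comparison. PPAT and PAICS share a single site. The matches describe letters only. The E2F sites of DUT and GART lie in windows of starts inside the gene models, as does the E-box of PAICS. No window at the outermost start of DUT or GART held an E2F site. Shown are the bases upstream of that internal start of DUT, whose gene model begins at 48331095 and whose footprint fall held in all 11 alternatives, and of the starts of DTYMK, which fell in footprints, and DCK, which had the largest rise. The E2F sites of DUT, the CCAAT boxes of DTYMK and the E-box of DCK are in capitals, each on the strand of its gene (minus for DTYMK, plus for the others).
DUT, chr15:48332137-48332196: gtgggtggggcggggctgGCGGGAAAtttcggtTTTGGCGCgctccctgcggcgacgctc
DTYMK, chr2:241686816-241686925: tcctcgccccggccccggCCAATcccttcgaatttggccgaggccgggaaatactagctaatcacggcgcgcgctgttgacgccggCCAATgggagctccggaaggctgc
DCK, chr4:70993519-70993648: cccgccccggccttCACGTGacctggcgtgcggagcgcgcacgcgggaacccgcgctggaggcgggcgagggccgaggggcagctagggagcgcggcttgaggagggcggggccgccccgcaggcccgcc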

How the data were processed

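Each library came as 1 table of raw read counts by Ensembl ID, which the authors had not normalized before they deposited it. Per the submitters' processing notes the tools were cutadapt, Trimmomatic, Bowtie2, STAR and featureCounts with builds hg38 and GRCh38, in roles not named. Not given in the sources used here were the annotation, the counted feature, the strand setting and the rule for multi-mapping reads. Per the labels' protocols mRNA libraries were primed with oligo(dT) and footprints were made with RNase I and depleted of rRNA. The substitution in the mutant DNMT3A is not reported here.

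Of 20453 IDs, 20407 matched a symbol in the RefSeq-based tables. Tests used edgeR 4.0.16 in R 4.3.3 (quasi-likelihood, glmQLFit with legacy off, TMM within an assay, filterByExpr by genotype, Benjamini-Hochberg over all genes tested). The mRNA and footprint comparisons used 4 libraries each, and footprints per mRNA the interaction over 8. The standard error is the size of the log2 fold change over the square root of F. Fitting was tested on simulated data.

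All 33 enzymes were described by role, those called with full values, and of the other lists up to 3 called genes per direction and comparison with the smallest p. The enzymes and lists were chosen with earlier results of these data known. No score over them was tested. Alternatives were RLE scaling, no filter, DESeq2 1.42.0, the legacy fit, a replicate block, a coefficient of variation of 10%, removal of the gene density trend (genes within 1 Mb) and leaving out each library. No transcript lengths were used, so the tests compare CPM within a gene only. Sums over genes and isozyme shares were taken without correction for length. No molecular identifiers were read, so intervals and floors cover counting error only.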

Additional observations from a re-analysis of the deposited data

How the results depend on the processing

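RLE scaling, the legacy fit and the absence of a filter left the counts of genes and of enzymes called within 1.5 times. DESeq2 called 1467 mRNA, 397 footprint and 123 footprints-per-mRNA changes over all genes, and of the enzymes 8, 1 and 0. It gave no adjusted p for 3754, 5874 and 5687 genes in the same order, so these could not be called. Of the enzymes 1, 9 and 9 were without one, PPAT, IMPDH1 and DCK footprints among them. The other nucleotide metabolism list had 4 and 3 DESeq2 calls in mRNA and footprints, with no adjusted p for 11 and 20 of its genes. The donors had 2 and 2 calls. At an assumed spread of 10% the gene counts were 313, 288 and 13 in the same order, the enzymes 0, 3 and 0, the other list 1 and 0, and the donors 0, 1 and 0. With the density trend removed the other list had 7 mRNA calls, and TYMS mRNA turned to -0.14 from 0.024.

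Each fit that leaves out 1 library assumes that the lone library of its group varies like the others. Genes called then ran between 2281 and 3839 for mRNA, 273 and 1807 for footprints and 140.0 and 445 for footprints per mRNA, and enzymes between 9 and 16, 1 and 11, and 0 and 2. The other list ran between 6 and 11 in mRNA and 1 and 7 in footprints, and the donors between 2 and 4 in footprints. The lowest footprint counts came without mut footprint replicate 1.

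Replicate numbers were not shown to pair libraries: correlations of same-numbered deviations ran from 0.023 to 0.143. With the replicate block 4168, 2074 and 595 genes were called, and 16, 13 and 3 enzymes. With raw library totals in place of TMM the mut over wt ratio of summed levels was 1.06 for purine footprints, 0.966 for pyrimidine footprints, 0.984 for deoxynucleotide mRNA and 0.887 for deoxynucleotide footprints, and footprints per UMPS mRNA in wt were 2.53. Raw totals leave out the TMM factors, which were 1.014 and 1.007 in mut mRNA, against 0.992 and 0.988 in wt mRNA. In footprints the factors were 1.019 and 1.017 in mut, against 0.985 and 0.979 in wt. They scale all genes of a library alike, so the ratios of the other arms rose too, PRPP supply footprints from 1.19 to 1.23. Footprint depth was limited, at 603360 counts in the shallowest mut library.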
